A study of Homo sapiens with 9 samples.

Results

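Lowering MED23 in A549 cells was followed by changes in many gene families at the RNA level, and the families described here are those outside the usual signalling pathways: metal-binding proteins, antigen presentation, secreted and surface proteins, enzymes, and genes with long coding sequences. The comparison takes 6 of the 9 Affymetrix arrays of the series, chosen by their labels, with 3 arrays of cells carrying RNA interference oligos against MED23 (si-Med23) and 3 of cells carrying a control oligo (si-Ctrl). The other 3 arrays, with oligos against the transcription factor ELK1 (si-Elk1), share the estimate of the spread and serve as a second knockdown. A549 is a lung adenocarcinoma line, grown here in Dulbecco's modified Eagle's medium with serum. The si-Med23 arrays hold 3 different oligos, A, B and C, numbered replicates 1, 2 and 3 in the labels, so their spread includes differences between oligos. Each oligo was measured on 1 array. The design text calls the cells with different oligos different cell lines. No label states whether the 3 control arrays came from separate cultures, so the p-values reflect the spread among these arrays alone, which may be technical.

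Mediator is the large complex that carries signals from DNA-bound transcription factors to RNA polymerase II. MED23 belongs to its tail module, which contacts the activators, and ETS factors such as ELK1 that are phosphorylated downstream of Ras are among its known partners. The title of the series names a need for MED23 in lung cancer with active Ras, and the arrays ask which transcripts change when MED23 is reduced.

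All 12 A549 and airway markers listed, such as keratins 8 and 18, were at or above the filter level on average over the arrays, though 11 were so within si-Med23, where the mucin gene MUC5AC fell by 1.64 ± 0.33, and their summed signal was 182000 to 200000 in si-Ctrl and 227000 to 294000 in si-Med23. The median signal of an array was between 64.9 and 88.2. Spiked poly-A transcripts gave a mean log2 signal of 7.61 ± 0.20 (SD, n = 3) in si-Ctrl and 9.22 ± 0.12 in si-Med23. The median log2 fold change over all genes tested was 0.09 as deposited, 0.13 after quantile normalization, 0.32 after centring on array medians, -0.41 when the hybridization controls were set equal and -1.52 when the poly-A spikes were. Directions below are therefore relative to the common trimmed mean of the arrays, and medians that turn under another scaling are given beside the count, where the hybridization control and poly-A spike scalings are called the control scalings. The log2 differences between 3' and 5' probe sets of ACTB, which reflect how intact the RNA is, were 0.72 ± 0.13 in si-Ctrl and 0.68 ± 0.07 in si-Med23. Those of GAPDH were 0.01, 0.06 and 0.03 in si-Ctrl and -0.05, -0.03 and -0.05 in si-Med23, which do not overlap. The si-Elk1 array with oligo C stood apart: 1021 genes were at least 2-fold below the control mean there, against 215 and 214 with its oligos A and B. Leaving out si-Elk1 replicate 3, which is that array, gave 3093 genes higher and 2791 lower in si-Med23 against si-Ctrl, and leaving out replicate 1 or 2 gave 2395 or 2447 higher and 2337 or 2369 lower.

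MED23 itself read 9.27, 9.05 and 9.08 (log2 signal) under the control oligo, and 6.79, 6.19 and 7.06 under oligos A, B and C, a 5.49-fold fall (log2 fold change -2.46 ± 0.27, SE, n = 3 arrays per group; adjusted p = 0.00184 over the genes tested). The groups did not overlap, as was the case for 57.3% of all genes tested, and oligo B gave the lowest signal. The SE of each log2 fold change comes from the limma fit, whose spread was estimated over all 9 arrays, si-Elk1 included. MED23 kept its call when any of the 6 arrays was left out, with log2 fold changes from -2.65 to -2.21. Of 12616 genes tested, 2561 (20.3%) passed with a higher and 2462 (19.5%) with a lower signal in si-Med23, by limma with Benjamini-Hochberg adjustment at a threshold of 0.05. Centring on array medians gave 4764 higher and 1676 lower, the hybridization controls 409 and 5205, and the poly-A spikes 18 and 11880. The counts were 1500 and 1674 when si-Ctrl replicate 3 was left out. Among probe sets to which the annotation gives no gene, 7.67% were higher and 20.3% lower. All counts of family members below are to be read beside the shares of 20.3% and 19.5%.

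Metallothioneins rose in 6 of the 7 genes tested. These small cysteine-rich proteins bind zinc and copper, and their genes lie side by side on chromosome 16 and are induced through metal response elements. Of the 9 symbols of the family, 7 genes were tested; 6 passed with higher signals and MT3 did not pass, with a median log2 fold change of 1.27 beside 0.09 over all genes tested. That median was positive under every scaling except the poly-A spikes, where it was -0.34. The promoters of MT2A, MT1X and MT1H are shown because they carry the element that the family is known for. RefSeq promoter sequences of GRCh38.p14 held 3 of the 7 genes, and the 250 bases before the start are printed 5' to 3' on the plus strand, with matches to the metal response element core, TGCACNC or TGCGCNC on either strand, in capitals.
MT2A, chr16:56608334-56608583: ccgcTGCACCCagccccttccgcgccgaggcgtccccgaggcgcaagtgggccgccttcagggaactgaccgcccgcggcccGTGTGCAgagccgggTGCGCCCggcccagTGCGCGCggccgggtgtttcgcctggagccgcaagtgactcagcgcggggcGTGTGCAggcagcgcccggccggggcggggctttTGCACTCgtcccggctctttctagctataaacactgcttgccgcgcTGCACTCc
MT1X, chr16:56682220-56682469: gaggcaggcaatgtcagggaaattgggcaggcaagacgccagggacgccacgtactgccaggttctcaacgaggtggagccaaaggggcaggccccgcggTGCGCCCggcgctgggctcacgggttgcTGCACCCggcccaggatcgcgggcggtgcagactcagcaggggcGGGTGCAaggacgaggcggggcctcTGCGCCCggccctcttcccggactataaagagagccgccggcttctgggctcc
MT1H, chr16:56669564-56669813: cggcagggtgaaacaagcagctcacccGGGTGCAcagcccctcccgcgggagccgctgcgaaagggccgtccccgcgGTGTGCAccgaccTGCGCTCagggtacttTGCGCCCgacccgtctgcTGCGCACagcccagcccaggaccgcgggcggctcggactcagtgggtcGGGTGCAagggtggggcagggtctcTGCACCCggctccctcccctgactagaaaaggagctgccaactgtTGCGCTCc
The core occurred 7 times in the MT2A window, 4 times in that of MT1X and 8 times in that of MT1H. At least 3 matches were found in 1.58% of all 35116 promoter windows of this length and in 2.27% of those of the genes tested. That share was 2.32% for genes that rose and 1.9% for genes that fell. At least 1 match was found in 33.5% of windows of genes that rose and 34.2% of those of genes that fell. The core was searched after the values of the family had been seen, and a match in letters is a description and does not show that a factor binds there.

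The MT1X signal was 11.36, 11.40 and 11.42 in the controls and 12.65, 12.88 and 12.88 under oligos A, B and C on the log2 scale, a difference of 1.41 ± 0.13 (adjusted p = 0.00184). All oligos lay more than 2-fold above all controls. MT2A, the most studied member, gave 12.96, 13.15 and 12.94 against 13.91, 14.23 and 14.14 (1.07 ± 0.17, adjusted p = 0.00297), again with no overlap. MT1H had a log2 fold change of 1.37 ± 0.22, MT1E of 1.29 ± 0.19 and MT1F of 1.27 ± 0.22. MT1G rose less, by 0.88 ± 0.28, and did not pass when si-Ctrl replicate 1 or 3 or oligo B or C was left out (adjusted p = 0.0914 to 0.112). MT3, a form known from the brain, gave 6.25, 6.33 and 7.19 in si-Ctrl and 6.18, 6.89 and 7.31 in si-Med23, near the filter level of log2 6.05, and its groups overlapped (0.20 ± 0.32, adjusted p = 0.639). Metallothionein genes are near-identical, and some of these probe sets may detect several of them, so the members are not independent. MT1G, MT2A and MT3 lie outside the rule by which genes were named and complete the family.

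**Figure D1:**
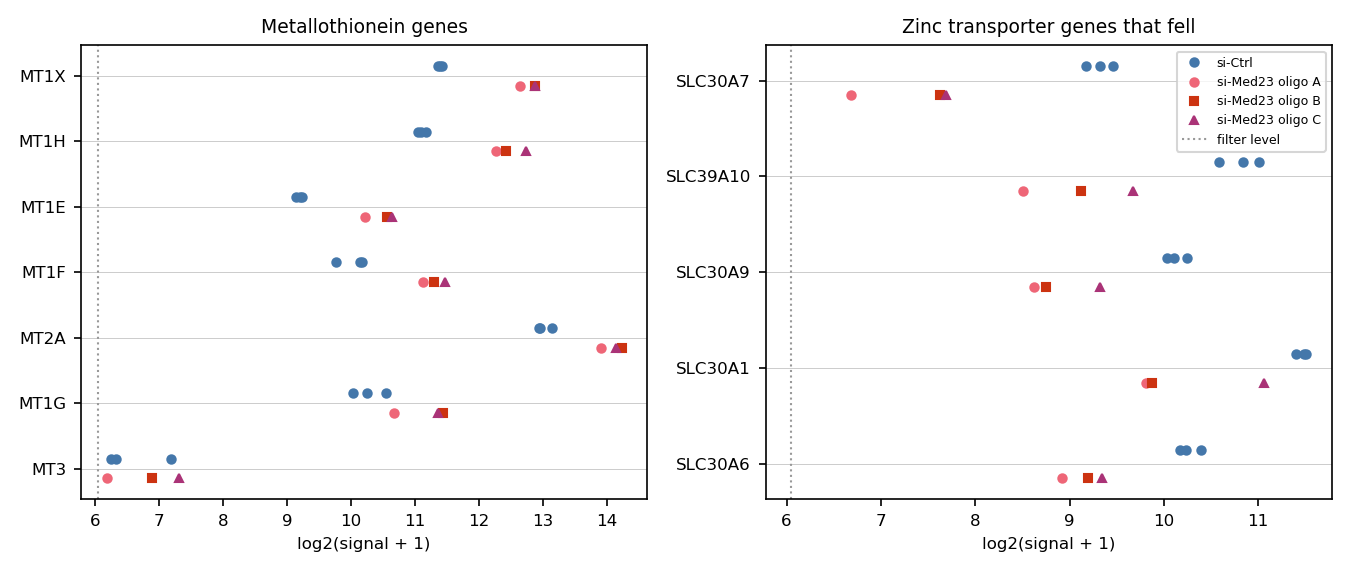
Log2(signal + 1) of the 7 metallothionein genes tested and of 5 zinc transporter genes that fell, for each si-Ctrl array (circles, upper row) and each si-Med23 oligo (lower row), with the filter level of 6.05 as a dotted line. MT1X sits at 11.36 to 11.42 in si-Ctrl and 12.65 to 12.88 in si-Med23, MT3 overlaps, and the transporters lie lower in si-Med23; with poly-A spike scaling the metallothionein median would be negative.

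Zinc transporters were looked at after the metallothionein values had been seen. The SLC30 family is known mainly for moving zinc out of the cytosol, which need not hold for each member. Of its 6 genes tested 4 fell and none rose (median -1.17). SLC30A7, a Golgi zinc transporter, went from 9.46, 9.32 and 9.18 to 6.68, 7.63 and 7.69 (log2 fold change -1.98 ± 0.31, adjusted p = 0.00305). SLC30A1, the plasma membrane exporter, gave 11.49, 11.51 and 11.40 under control and 9.81, 9.87 and 11.06 under the A, B and C oligos (-1.22 ± 0.34, adjusted p = 0.0223). Oligo C was closest to the controls there, the other probe set of SLC30A1 did not move the same way, and the call was lost without any si-Ctrl array or oligo A or B (adjusted p = 0.0565 to 0.0733). SLC30A9 fell by 1.24 ± 0.33 on the log2 scale and SLC30A6 by 1.12 ± 0.30; both lost the call without si-Ctrl replicate 3 or oligo A, and SLC30A9 also without oligo B (adjusted p = 0.0581 to 0.0622). The SLC39 family, which brings zinc into the cytosol, went both ways among its 12 genes tested. SLC39A10 fell by 1.71 ± 0.41 (adjusted p = 0.0126) and SLC39A6 by 0.55 ± 0.18 (0.0407). SLC39A3, SLC39A4, SLC39A5 and SLC39A7 passed with higher signals at adjusted p-values between 0.0280 and 0.0480. SLC39A3 and SLC39A4 lost the call without any of the 6 arrays, SLC39A5 without any but si-Ctrl replicate 3, SLC39A7 without any but oligo B, and SLC39A6 without si-Ctrl replicate 1 or 3 or oligo A or B (adjusted p = 0.0511 to 0.138). SLC39A5 reached the filter through the group where it is high, with a mean of 5.58 in si-Ctrl and 7.35 in si-Med23, so its call is no support.

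Of the genes of antigen presentation tested, 15 rose and none fell. HLA class I molecules display peptides on the cell surface together with beta-2-microglobulin, and the peptides are cut by the immunoproteasome. Of 34 symbols, 26 were tested; 15 passed with higher signals and 11 did not pass, and the median log2 fold change of 0.82 was negative only with poly-A spike scaling (-0.79). HLA-B read 10.30, 10.38 and 10.20 under the control oligo and 11.54, 11.47 and 11.74 under A, B and C, a 2.44-fold rise (adjusted p = 0.00200). HLA-C rose 2.17-fold and HLA-E 2.13-fold. B2M, the shared light chain, gave 14.09, 14.20 and 14.07 against 14.63, 14.67 and 14.70 (0.55 ± 0.11, adjusted p = 0.00719). In these 4 genes every oligo lay above every control, as was the case for 31.7% of all genes tested. HLA class I genes are close in sequence, so their probe sets may share signal. Of the peptide-producing machinery, PSMB8 rose by 1.16 ± 0.18, PSMB10 by 0.79 ± 0.14 and the proteasome activator subunit PSME1 by 1.23 ± 0.14 (adjusted p = 0.00300, 0.00431 and 0.00184). The loading factors TAPBP and PDIA3 rose by 0.86 ± 0.18 and 1.00 ± 0.15. TAP1, the peptide transporter, did not pass, with 10.54, 10.28 and 10.17 in si-Ctrl and 10.32, 10.37 and 10.39 in si-Med23 (0.03 ± 0.16, adjusted p = 0.899). HLA-DMB, which loads class II molecules, rose by 1.14 ± 0.23.

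Of 12 cathepsins tested, which are lysosomal proteases, 7 rose and 1 fell, and the median, 0.64, turned negative only with poly-A spike scaling (-0.97). CTSD, the main aspartic protease of lysosomes, went from 9.67, 9.80 and 9.71 to 10.89, 10.83 and 11.47 (1.34 ± 0.21, adjusted p = 0.00285). CTSS, which trims the class II chaperone and is counted in both lists, rose by 1.21 ± 0.26, CTSH by 1.04 ± 0.15, CTSF by 0.95 ± 0.18 and CTSB by 0.81 ± 0.14. CTSV was the member that fell, by 0.44 ± 0.16 (adjusted p = 0.0492), and it lost its call without any of 5 of the 6 arrays, all but oligo C (0.0607 to 0.152).

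**Figure D2:**
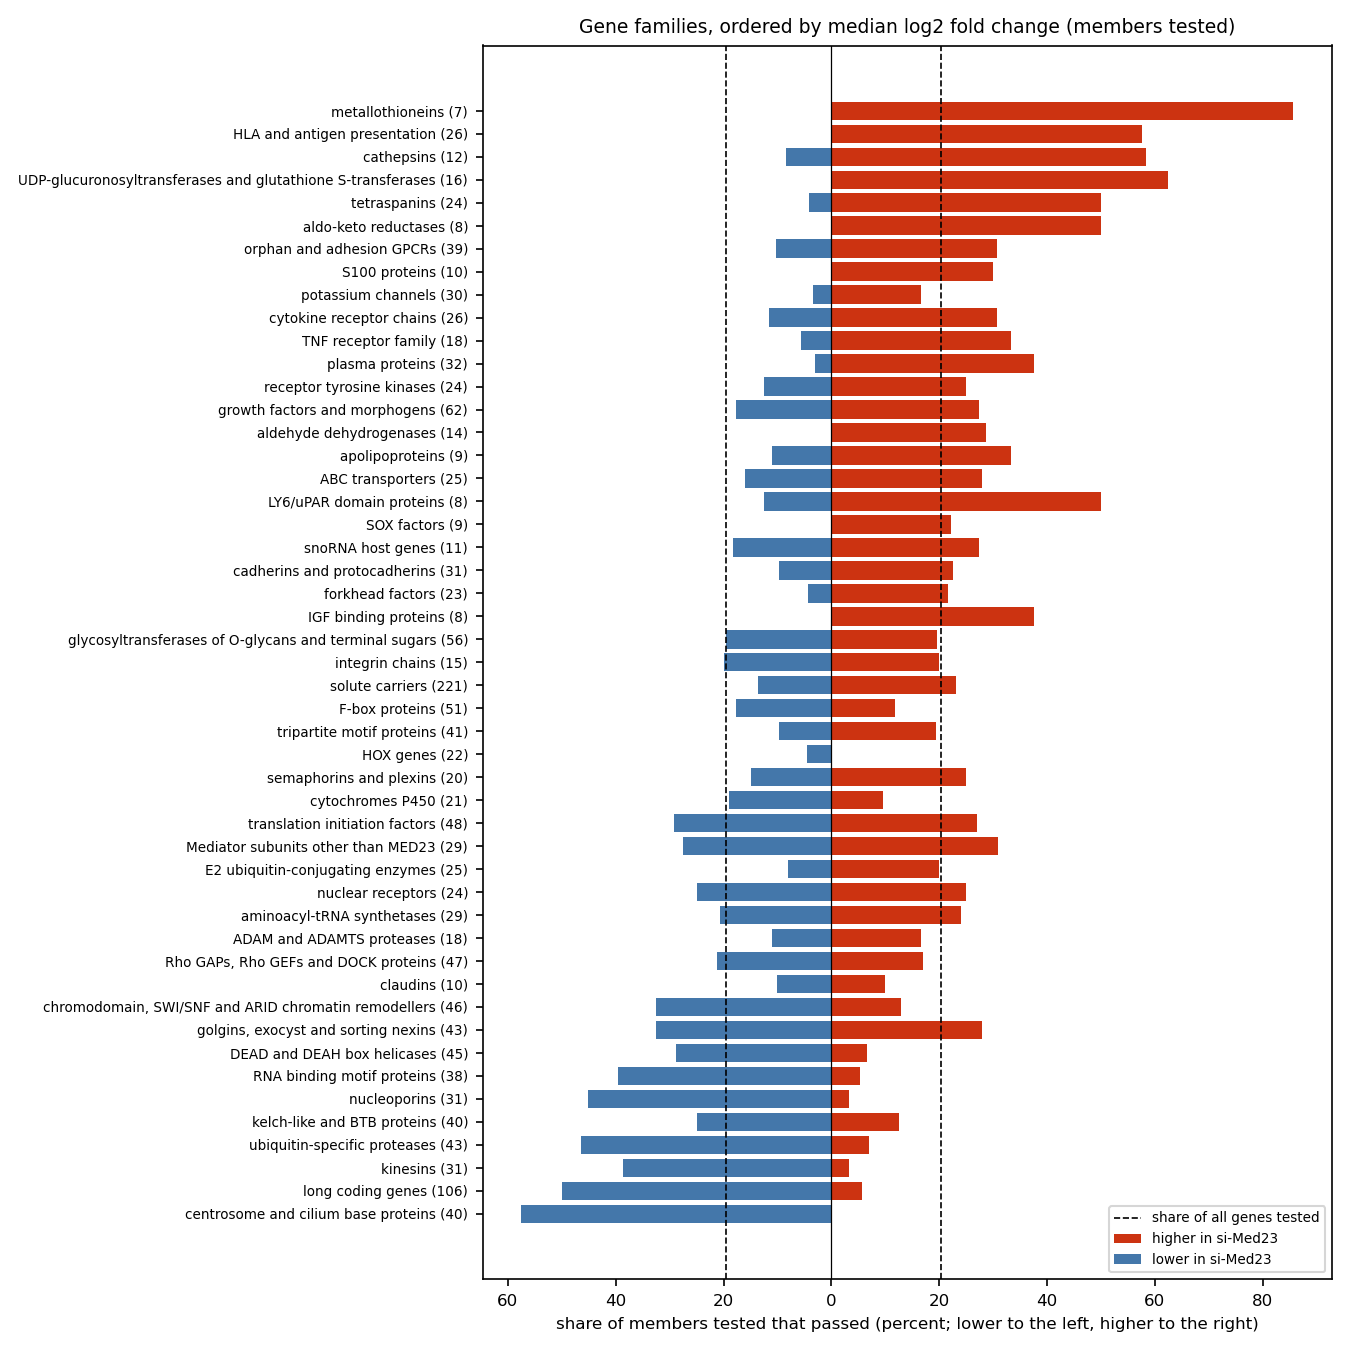
Share of tested members that passed in each family with at least 7 genes tested, lower signals to the left and higher to the right, in percent, ordered by the median log2 fold change; dashed lines mark the shares over all genes tested, 20.3% and 19.5%. Metallothioneins stand at the top and centrosome proteins at the bottom; with poly-A spike scaling every family's median would be negative.

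Among secreted proteins, 37.5% of plasma protein genes rose and 3.12% fell. Growth factors, with 27.4% and 17.7%, lay nearer the 20.3% and 19.5% of all genes tested. Of 32 plasma protein genes tested 12 rose and 1 fell, and the median of 0.30 turned negative with hybridization control scaling (-0.20) and with poly-A spike scaling (-1.31). SERPINA3, an acute-phase protease inhibitor, gave 7.72, 7.74 and 7.83 in si-Ctrl and 9.48, 8.66 and 9.41 in si-Med23 (1.42 ± 0.21, adjusted p = 0.00267). RBP4, the carrier of retinol, rose by 1.19 ± 0.19. The complement component C5 was the member that fell, from 9.59, 9.39 and 10.04 to 7.69, 8.17 and 8.09 (-1.69 ± 0.29, adjusted p = 0.00400), while C3 and the protease C1R of the same cascade rose. Of 62 growth factors and morphogens tested 17 rose and 11 fell (median 0.27, or -0.23 and -1.34 with the hybridization control and poly-A spike scalings). DKK3, a secreted relative of Wnt inhibitors, rose from 10.06, 9.90 and 9.89 to 11.19, 11.82 and 11.98 (1.72 ± 0.21). EFNA1, an ephrin ligand, rose by 2.12 ± 0.20, BMP2 by 1.41 ± 0.18, MDK, the heparin-binding factor midkine, by 1.33 ± 0.22, and VEGFB by 1.09 ± 0.19. EREG, epiregulin, a ligand of the EGF receptor family, fell by 1.99 ± 0.29. BTC, betacellulin, of the same family, was lower by 1.64 ± 0.23, but its 3 si-Med23 signals lay below the filter level. It reached the filter through groups where it is high, with a mean of 7.19 in si-Ctrl and 5.54 in si-Med23. The size of its fall is uncertain and its call is no support. IGFBP7 was higher by 1.56 ± 0.25, and the calcium-binding S100A4 and S100A13 by 0.77 ± 0.16 and 0.91 ± 0.15. The other probe set of S100A13 did not move the same way.

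Surface proteins moved in both directions, as did all genes tested, of which 20.3% rose and 19.5% fell. MET, the receptor of hepatocyte growth factor, gave 12.91, 12.91 and 12.70 under control and 11.13, 11.41 and 11.52 under oligos A, B and C (-1.49 ± 0.21, adjusted p = 0.00237). ROR1, a Wnt5a receptor of the same class, fell by 1.81 ± 0.30. ERBB2 rose from 9.06, 9.25 and 9.14 to 9.60, 10.31 and 9.97 (0.81 ± 0.19, adjusted p = 0.0119) and FGFR3 by 1.16 ± 0.23. Of 24 receptor tyrosine kinases tested 6 rose and 3 fell (median 0.30, or -0.20 and -1.32 with the control scalings); MERTK, besides MET and ROR1, fell by 0.61 ± 0.19, a call lost without any array but oligo A (adjusted p = 0.0657 to 0.101), and averaging its probe sets gave 0.22. IL6ST, the signalling chain gp130 of the IL-6 receptor, gave 11.60, 11.28 and 11.71 in si-Ctrl and 9.89, 9.57 and 10.57 in si-Med23 (-1.52 ± 0.35, adjusted p = 0.0110), and its 4 other probe sets moved the same way. IL6 itself, a ligand of that receptor, rose from 6.23, 6.36 and 6.33 to 8.88, 7.50 and 8.85.

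Of 15 integrin chains tested 3 rose and 3 fell (median 0.18, or -0.31 and -1.43 with the control scalings). ITGA6, a laminin receptor chain, fell from 11.17, 11.47 and 11.25 to 9.84, 10.04 and 9.55 (-1.49 ± 0.18, adjusted p = 0.00202), and the collagen receptor chain ITGA2 fell by 1.35 ± 0.27. ITGAV, a chain of vitronectin receptors, fell by 1.19 ± 0.30 but lost its call without either of 2 arrays, si-Ctrl replicate 3 and oligo A (adjusted p = 0.0516 and 0.0589). ITGA5 and ITGB5 rose by 0.73 ± 0.12 and 0.59 ± 0.12, and ITGA11 by 1.18 ± 0.32 with a call lost without si-Ctrl replicate 1 or 3 (0.0632 and 0.0635). Of 18 TNF receptor family genes tested 6 rose, TNFRSF1A, the main receptor of TNF, from 12.04, 12.04 and 11.99 to 13.08, 13.24 and 12.91 (1.06 ± 0.14, adjusted p = 0.00208), and TNFRSF21 by 0.97 ± 0.12; the death receptor FAS was the member that fell. The median of that family was 0.31, and negative with both control scalings (-0.19 and -1.30). Tetraspanins, which organise patches of the membrane, rose in 12 of 24 genes tested and fell in 1, and their median of 0.52 turned negative only with poly-A spike scaling (-1.09). CD63 gave 13.80, 13.86 and 13.76 against 14.33, 14.51 and 14.52, CD81 rose by 0.57 ± 0.12, TSPAN7 by 1.00 ± 0.13 and TSPAN33 by 0.97 ± 0.12. CD9 rose by 0.66 ± 0.17 and lost the call without oligo B (0.0513), and its other probe set did not move the same way. TSPAN12, a partner of frizzled receptors, was the tetraspanin that fell, by 0.88 ± 0.22. Among 39 orphan and adhesion receptors coupled to G proteins (median 0.41, or -0.09 and -1.20 with the control scalings) 12 rose, such as GPR161, a cilium receptor (1.41 ± 0.19), and 4 fell: ADGRG6 (-1.91 ± 0.36), LGR4, a receptor of R-spondins (-1.37 ± 0.19), GPR180 (-1.30 ± 0.15) and ADGRL2 (-1.28 ± 0.40), the last of which lost its call without any 1 of the 6 arrays (0.0538 to 0.0907). Of 221 solute carriers tested 51 rose and 30 fell (median 0.17, or -0.32 and -1.44 with the control scalings), with the glutamine transporter SLC38A1 lower by 1.95 ± 0.34.

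Enzymes that conjugate foreign compounds were counted in the same way. Of 16 UDP-glucuronosyltransferase and glutathione S-transferase genes tested 10 rose and none fell (median 0.56, negative only with poly-A spike scaling at -1.05). GSTM3 gave 9.90, 9.93 and 9.64 in si-Ctrl and 10.98, 11.22 and 11.17 in si-Med23 (1.30 ± 0.15, adjusted p = 0.00184), and GSTP1 and GSTK1 each rose by 0.77 ± 0.15. The mitochondrial superoxide dismutase gene SOD2 rose by 2.17 ± 0.27 and ASS1, argininosuccinate synthase, by 2.17 ± 0.32. HOX genes, which set position along the body axis, passed in 1 of 22 genes tested, beside 39.8% of all genes: HOXA2 fell by 0.46 ± 0.11 (adjusted p = 0.0124), a call lost with quantile normalization, median centring and a trended prior (0.0628 to 0.157). The HOX median was 0.15, or -0.35 and -1.47 with the control scalings.

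Of the genes with long coding sequences tested, 53 fell and 6 rose. The list was written by hand from genes known for long proteins, since no table of lengths was used here, and 106 of its 121 symbols were tested. Of these 47 did not pass, and the list had a median log2 fold change of -0.68 that was negative under every scaling run, and 31 were at least 2-fold lower with all 3 oligos, each against the control array of the same number, where 6.25% of all genes tested were. When the probe sets of each gene were averaged in place of taking the brightest, 30 fell. RIF1, which guards replication timing and DNA breaks, gave 9.54, 8.82 and 9.84 under control and 6.52, 5.83 and 6.61 under A, B and C. Its 4 other probe sets moved the same way, and 1 of its si-Med23 arrays lay below the filter level. RALGAPA1, a catalytic subunit of the Ral GTPase-activating complex, gave 9.48, 9.50 and 9.59 against 6.39, 7.25 and 7.16. ROCK2 and ROCK1, kinases that contract the actin cortex, fell by 2.19 ± 0.46 and 1.80 ± 0.39. ATR, the kinase that senses stalled replication, went from 9.85, 9.99 and 10.23 to 7.96, 7.97 and 8.08, a 4.05-fold fall in which the oligos agreed closely.

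The falls in that list spanned many functions. NIPBL, which loads cohesin, fell by 2.16 ± 0.53, with 1 si-Med23 array below the filter level. The lipid transfer protein gene VPS13C fell by 2.10 ± 0.49, the lipid kinase gene PIKFYVE by 1.91 ± 0.31, RANBP2, a giant nucleoporin, by 2.11 ± 0.27 and USP34, a deubiquitinase, by 1.73 ± 0.30. FN1, fibronectin, was the member at least 2-fold higher with all 3 oligos, at 12.56, 12.70 and 12.39 in si-Ctrl and 13.57, 13.82 and 13.89 in si-Med23. The other risers were FBN1 (1.07 ± 0.27), TLN1 (0.76 ± 0.22), MED12 (0.41 ± 0.12), UBR4 (0.41 ± 0.14) and LAMA5 (0.40 ± 0.14). FBN1 lost its pass when si-Ctrl replicate 3 was omitted (adjusted p = 0.0519), MED12 without si-Ctrl replicate 1 or 3 or oligo B, TLN1 without these or oligo C, UBR4 without any array but oligo A, and LAMA5 without any of the 6 (0.0560 to 0.139). With hybridization control scaling MED12, UBR4 and LAMA5 were below 0. PIKFYVE and MED12 each had 2 other probe sets above the filter level, of which 1 moved the same way. In a split made by hand after the values had been seen, 25 matrix, cytoskeleton and surface members held 4 that rose and 5 that fell (median -0.04). The other 81 held 2 that rose and 48 that fell (median -0.95). Not every cytoskeletal gene was among the 25, and DYNC1H1 was left out of them. The median level was log2 9.57 in the 25 and 8.99 in the others. As the split was drawn with the fold changes known, its contrast is a description and no support. HUWE1, a giant ubiquitin ligase, did not pass, with 14.73, 14.78 and 14.41 in si-Ctrl and 14.75, 14.58 and 14.84 in si-Med23, nor did the dynein heavy chain DYNC1H1 (-0.06 ± 0.13), MYH9 (0.20 ± 0.14) or PLEC (-0.22 ± 0.22). The 3' to 5' differences of ACTB overlapped between the groups and those of GAPDH did not, and the part of RNA integrity in the falls was not tested.

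**Figure D3:**
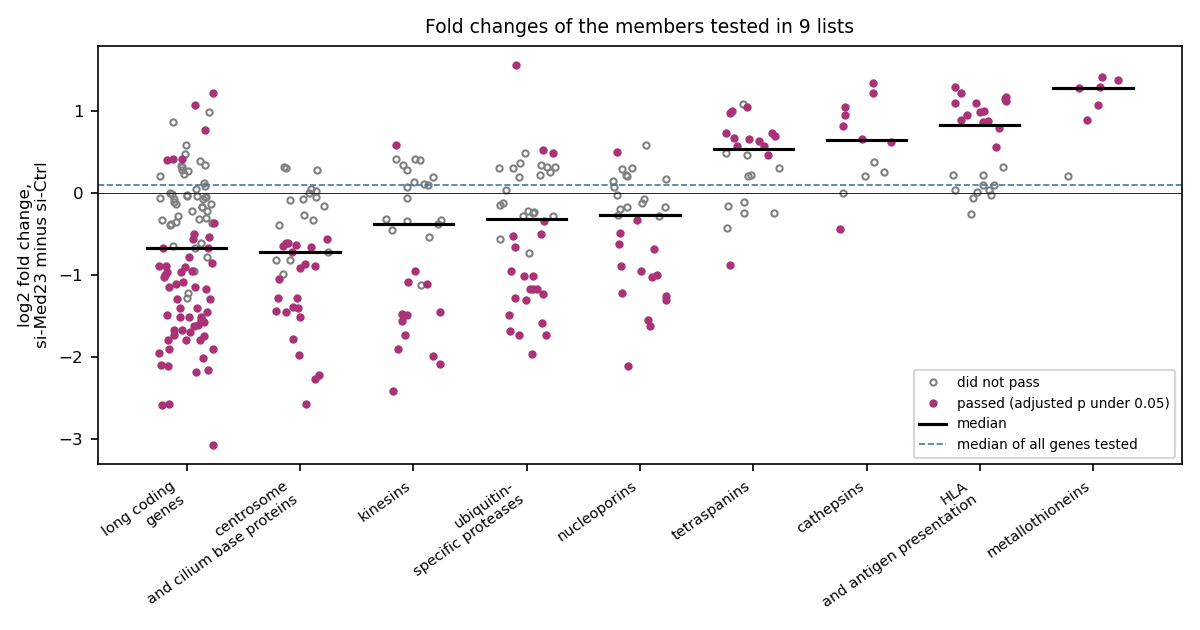
Log2 fold change, si-Med23 minus si-Ctrl, of each tested member of 9 lists; filled points passed, open points did not, bars are list medians and the dashed line is the median of all genes tested, 0.09. The medians run from -0.72 for centrosome proteins to 1.27 for metallothioneins; those of the 4 rising lists would be negative with poly-A spike scaling.

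Proteins of the centrosome and the cilium base showed the lowest median of the families listed, with 23 of 40 genes tested lower, none higher and a median of -0.72 that was negative under every scaling run. CEP350 gave 9.18, 9.45 and 9.39 in si-Ctrl and 7.04, 6.74 and 7.57 in si-Med23 (-2.22 ± 0.39, adjusted p = 0.00430). NIN, ninein, which anchors microtubules, fell by 1.98 ± 0.36, CEP55, a factor of the last step of cell division, by 1.78 ± 0.29, and PCM1, the scaffold of centriolar satellites, by 1.51 ± 0.26. Kinesins, the microtubule motors, fell in 12 of 31 genes tested, 10 were at least 2-fold lower with all 3 oligos, and the list median of -0.38 was negative under every scaling run. KIF14, a motor of cytokinesis, went from 9.79, 9.55 and 10.26 to 7.41, 7.33 and 7.60, a 5.35-fold fall, and KIF15 and KIF21A fell by 2.09 ± 0.35 and 1.99 ± 0.37. KIF1C was the kinesin that rose (0.58 ± 0.19), with overlapping groups and a call lost without si-Ctrl replicate 2 or 3 or oligo B or C (adjusted p = 0.100 to 0.124). Some of these genes are also in the long list or are known to rise in dividing cells, so the lists are not independent.

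Nucleoporins, the proteins of the nuclear pore, fell in 14 of 31 genes (median -0.27, negative under every scaling run). TPR, the basket of the pore, gave 9.99, 9.96 and 10.29 in si-Ctrl and 8.56, 8.55 and 8.49 in si-Med23 (-1.55 ± 0.27, adjusted p = 0.00426). SEC13 was the nucleoporin that rose (0.50 ± 0.16), a call lost without any 1 of the 6 arrays (0.0508 to 0.116). Ubiquitin-specific proteases fell in 20 of 43 genes (median -0.35, negative under every scaling run), with USP24 lower by 1.73 ± 0.23 and USP16 by 1.69 ± 0.22. USP4, USP11 and USP20 rose with adjusted p-values of 0.0223 to 0.0259; USP4 failed when si-Ctrl replicate 3 or oligo A or B was omitted, USP11 without any array but oligo A, and USP20, with 2 arrays below the filter level, without si-Ctrl replicate 1 or 2 or oligo B or C (0.0524 to 0.0842). RNA binding motif proteins fell in 15 of 38 genes, among them RBM27 (-2.30 ± 0.32), and RBM23 and RBM4B rose; the list median of -0.21 was 0.02 after median centring. DEAD and DEAH box helicases fell in 13 of 45, among them DHX36, which unwinds G-quadruplexes (-1.89 ± 0.21), and DDX21, a nucleolar helicase (-1.56 ± 0.21), while DHX8, DDX24 and DDX56 rose; their median of -0.20 was 0.04 after median centring. RBM23 failed when si-Ctrl replicate 2 or 3 was left out, RBM4B without any array but si-Ctrl replicate 1, DDX24 without any of the 6 and DDX56 without any but oligo C (0.0533 to 0.148), while DHX8 kept its own. The other probe set of DDX56 did not move the same way.

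Translation factors went both ways, as did all genes tested, of which 20.3% rose and 19.5% fell. These shares were 27.1% and 29.2% in initiation factors and 24.1% and 20.7% in aminoacyl-tRNA synthetases. Of 48 initiation factor genes 13 rose and 14 fell (median 0.11, or -0.01 after quantile normalization and -0.39 and -1.50 with the control scalings). EIF1AX gave 13.08, 13.05 and 13.18 in si-Ctrl and 11.66, 11.54 and 11.65 in si-Med23 (-1.48 ± 0.18, adjusted p = 0.00202). EIF5B, which joins the ribosomal subunits, fell by 1.80 ± 0.34 and EIF2S2, a subunit of the factor that brings in the initiator tRNA, by 1.36 ± 0.17. Of 29 aminoacyl-tRNA synthetases 7 rose and 6 fell (median -0.02, but 0.03 after quantile normalization and 0.21 after median centring), with TARS1 and LARS1 lower by 1.43 ± 0.19 and 1.30 ± 0.18. Of 46 chromatin remodeller genes 6 rose and 15 fell (median -0.12, or 0.11 after median centring), with CHD1 and ATRX lower by 1.74 ± 0.34 and 1.72 ± 0.36.

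The promoters of genes that fell held a CGCG element, TCTCGCGA on either strand, more often than others, and the windows below show it in 5 of those genes. It was found in 3.55% of 2056 promoter windows of genes that fell, 2.04% of 2112 of genes that rose, 1.54% of 6089 of genes that did not pass and 1.03% of all 35116 windows. In the long coding genes, many of which fell, 1 of 88 windows held it (1.14%). The element was picked after 16 motifs had been searched in these promoters, so the shares are a description, with no test. Over the 16 motifs the share in genes that fell ranged from 0.741 to 2.44 times that in genes that did not pass, and the highest ratio was that of the element known for ZNF143 binding, in 0.924% and 0.378%. The ETS core CCGGAAG, the kind of site that ELK1 binds, stood in 18.1% of genes that fell, 16.4% of those that rose and 14.7% of those that did not pass. The genes shown are the 5 largest falls with a match among genes with no overlap and every array at or above the filter level, out of 72 such genes after those of a chromosome not shown here were set aside. The windows of 40 bases, from RefSeq with GRCh38.p14 coordinates, are printed 5' to 3' on the strand of the gene with the element in capitals, and matches on opposite strands that overlap are merged.
RAPGEF6, chr5:131635361-131635400, minus strand: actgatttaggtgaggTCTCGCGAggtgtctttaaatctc
CEP350, chr1:179954703-179954742, plus strand: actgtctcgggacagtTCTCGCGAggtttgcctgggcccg
CIP2A, chr3:108589649-108589688, minus strand: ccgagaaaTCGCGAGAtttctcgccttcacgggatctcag
CD2AP, chr6:47477723-47477762, plus strand: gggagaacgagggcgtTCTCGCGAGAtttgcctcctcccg
TAOK1, chr17:29390276-29390315, plus strand: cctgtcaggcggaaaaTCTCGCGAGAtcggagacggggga
RAPGEF6, an exchange factor for Rap GTPases, gave 10.30, 10.23 and 10.45 in si-Ctrl and 7.75, 8.29 and 8.12 in si-Med23 (-2.27 ± 0.41). CIP2A, an inhibitor of the phosphatase PP2A, fell by 2.04 ± 0.31, CD2AP, an adaptor of the actin cytoskeleton, by 2.03 ± 0.31 and the kinase gene TAOK1 by 1.93 ± 0.41. These 3 were named for their promoters, outside the naming rule, and averaging the probe sets of CD2AP gave a log2 fold change of 0.01.

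The largest falls with every array at or above the filter level, besides those above, came from genes of varied function. BCAT1, which starts the breakdown of branched-chain amino acids, gave 10.06, 10.05 and 10.46 under control and 7.24, 7.02 and 6.67 under A, B and C. CHML, a Rab escort protein, gave 10.53, 10.25 and 10.87 against 8.04, 8.39 and 7.74 (-2.50 ± 0.26, adjusted p = 0.00184). RICTOR, the defining subunit of the kinase complex mTORC2, gave 9.76, 9.59 and 10.16 against a lowest value of 6.90 with oligo B and a highest of 8.38 with oligo C (-2.41 ± 0.47, adjusted p = 0.00612). Oligo C left a higher RICTOR signal than A and B, still below every control. CACNA2D1, a calcium channel subunit, fell by 2.37 ± 0.27, LYRM7, an assembly factor of mitochondrial complex III, by 2.34 ± 0.26, ATAD2, a chromatin ATPase, by 2.33 ± 0.35, DOCK10, a guanine nucleotide exchange factor, by 2.33 ± 0.53, and LRRC58, DMXL2 and ZFX by 2.43 ± 0.36, 2.27 ± 0.47 and 2.27 ± 0.22. Of all genes tested 17.5% were lower and 19.3% higher with a pass, no overlap and every array at or above that level, and 1074 (8.51%) and 369 (2.92%) of them were so by at least 2-fold.

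The largest rises under the same conditions included secreted, membrane, cytosolic and mitochondrial products. C3 gave 8.22, 7.99 and 7.86 in si-Ctrl and 12.01, 11.01 and 12.67 in si-Med23, a 14.6-fold rise. PDZK1IP1 rose 9.17-fold, the pseudogene WFDC21P 6.77-fold and LCN2, a siderophore-binding protein, 5.93-fold. SCNN1A, the alpha subunit of the epithelial sodium channel, gave 6.90, 7.42 and 7.79 against 9.30, 9.41 and 10.74 (2.45 ± 0.37, adjusted p = 0.00276), and MUC1, a membrane mucin, 7.39, 7.43 and 6.40 against 9.05, 8.76 and 9.96 (2.18 ± 0.44, adjusted p = 0.00648). FEZ1, a kinesin adaptor, rose by 2.50 ± 0.30, GLIPR1 by 2.19 ± 0.24, C1R by 2.13 ± 0.29, CXCL8 by 2.07 ± 0.22 and ANG, the ribonuclease angiogenin, by 2.05 ± 0.28. GLIPR1 had 4 other probe sets above the filter level, of which 3 moved the same way. In C3, LCN2, IL6, SOD2 and CXCL8 oligo B gave the smallest rise of the oligos and still lay above every control.

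**Figure D4:**
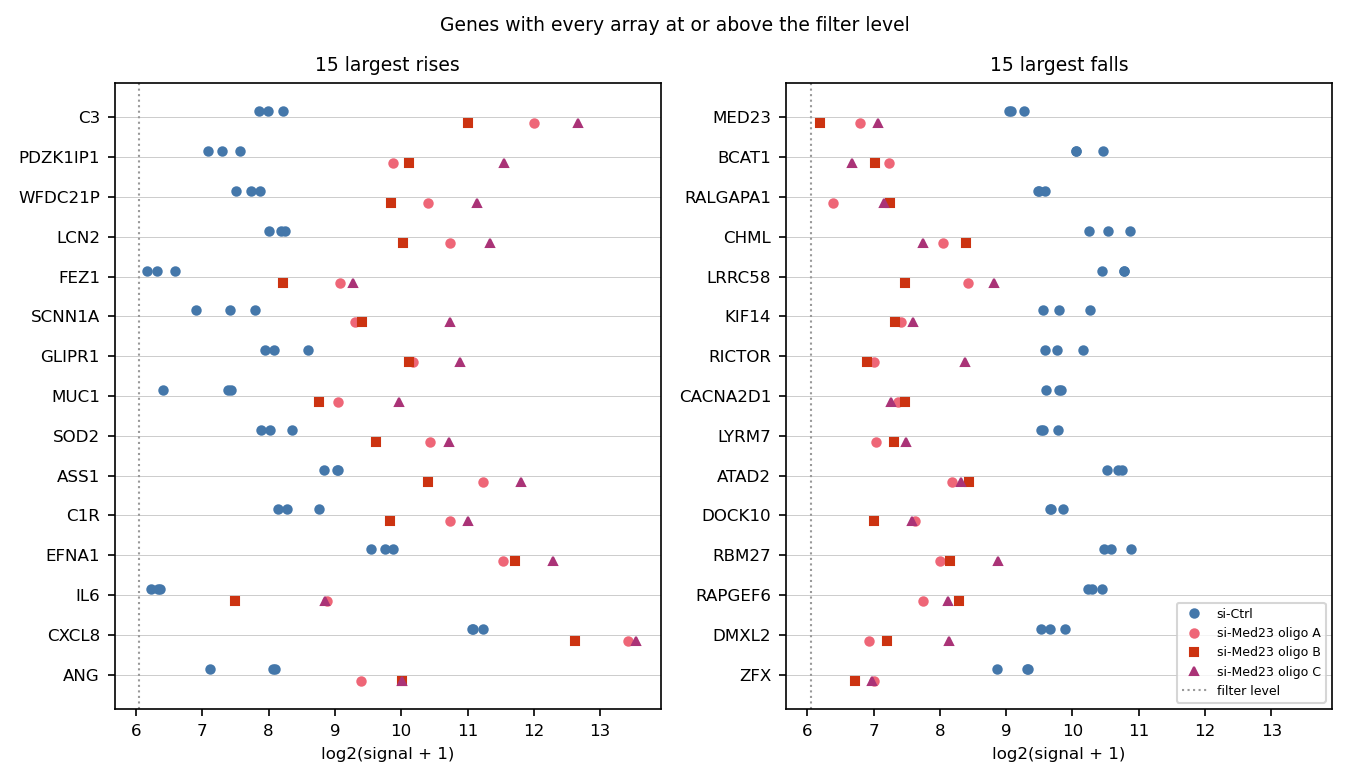
Log2(signal + 1) of the 15 genes with the largest rises (left) and of the 15 with the largest falls (right) among genes with every array at or above the filter level (dotted line), for each si-Ctrl array and each si-Med23 oligo. C3 moves from 7.86 to 8.22 in si-Ctrl up to 11.01 to 12.67, and no gene shown has overlapping groups, which its choice required.

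Other probe sets of the same genes mostly moved with the one chosen when the gene fell, and less so when it rose. Of 2821 other probe sets above the filter level for genes that fell, 55.9% passed with a lower signal and 0.815% with a higher one. Of 1934 for genes that rose, 34.3% passed with a higher and 2.69% with a lower signal. MED23 had 2 further probe sets above that level, and both were lower in si-Med23.

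Relative to the deposited scale, more genes fell than rose with all oligos, and that balance depended on the scaling. Set against the control array of the same number, 641 genes were at least 2-fold higher with oligo A, 739 with B and 1053 with C, and 1540, 1569 and 1511 were at least 2-fold lower. With all 3 oligos 153 genes (1.21% of those tested) were higher and 788 (6.25%) lower. Of the genes 2-fold higher with any oligo 9.06% were so with all 3, and of those 2-fold lower 31.9%. Against the mean of the controls 251 genes (1.99%) were higher and 760 (6.02%) lower with all 3, and these shares were 20.7% and 33.2%. The 3 oligos gave the same sign in 68.5% of genes, and 113 genes (0.896%) were 2-fold higher with 1 oligo and 2-fold lower with another, or 24 against the mean of the controls. The median over genes of the SD within a group was 0.14 in si-Ctrl and 0.20 in si-Med23. After median centring 417 genes were 2-fold higher with all 3 oligos and 442 lower, and with poly-A spike scaling 5 and 8048.

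Some genes gave nearly the same value with each oligo. DENND5B, an activator of Rab GTPases, gave 9.88, 10.11 and 10.37 in si-Ctrl and 8.09, 8.09 and 8.05 in si-Med23 (-2.04 ± 0.28). HNRNPL, a splicing regulator, gave 9.90, 9.91 and 9.86 against 11.02, 10.99 and 11.01 (1.12 ± 0.13), and the interferon-induced IFITM3 9.74, 9.59 and 9.47 against 11.12, 11.17 and 11.14 (1.55 ± 0.14). In each the oligos lay closer together than the controls or about as close. The kinase gene AKT1 rose by 1.19 ± 0.25, CARHSP1 by 1.20 ± 0.13 and TSR2, a ribosome assembly factor, by 1.14 ± 0.11, while RHOT1, a GTPase of mitochondrial transport, fell by 1.05 ± 0.22, the chromatin remodeller gene HELLS by 1.12 ± 0.20 and ZNF146 by 1.40 ± 0.23. These were chosen for their small range, which is a description.

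In other genes a single oligo stood apart. CEACAM6, a cell adhesion molecule, gave 11.32, 11.27 and 11.16 in si-Ctrl, 13.26 with oligo B, and 9.27 and 9.99 with A and C. It lay above every control with B and below every control with A and C, and it did not pass (-0.41 ± 0.84, adjusted p = 0.717). TMEM64 gave 11.77, 11.66 and 11.63 in si-Ctrl, 9.49 with oligo A and 11.13 and 11.53 with B and C. ITFG1 gave 12.27, 12.07 and 12.05, 10.05 with oligo B and 11.80 and 11.83 with A and C. MAGEA12, a cancer-testis antigen, gave 8.64, 8.58 and 8.77, 6.79 with oligo C and 8.85 and 8.79 with A and B. IGSF11 and ERI1 with oligo A, CNTROB with B, and IGDCC4 and TCN1, a vitamin B12 binder, with C were the others named by the rule, and of the 9 genes only ERI1 passed (-1.84 ± 0.37, adjusted p = 0.00674). A gap of at least 2-fold between 1 oligo and the nearest of the other 5 arrays was found in 14 genes for oligo A, 21 for B and 16 for C.

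**Figure D5:**
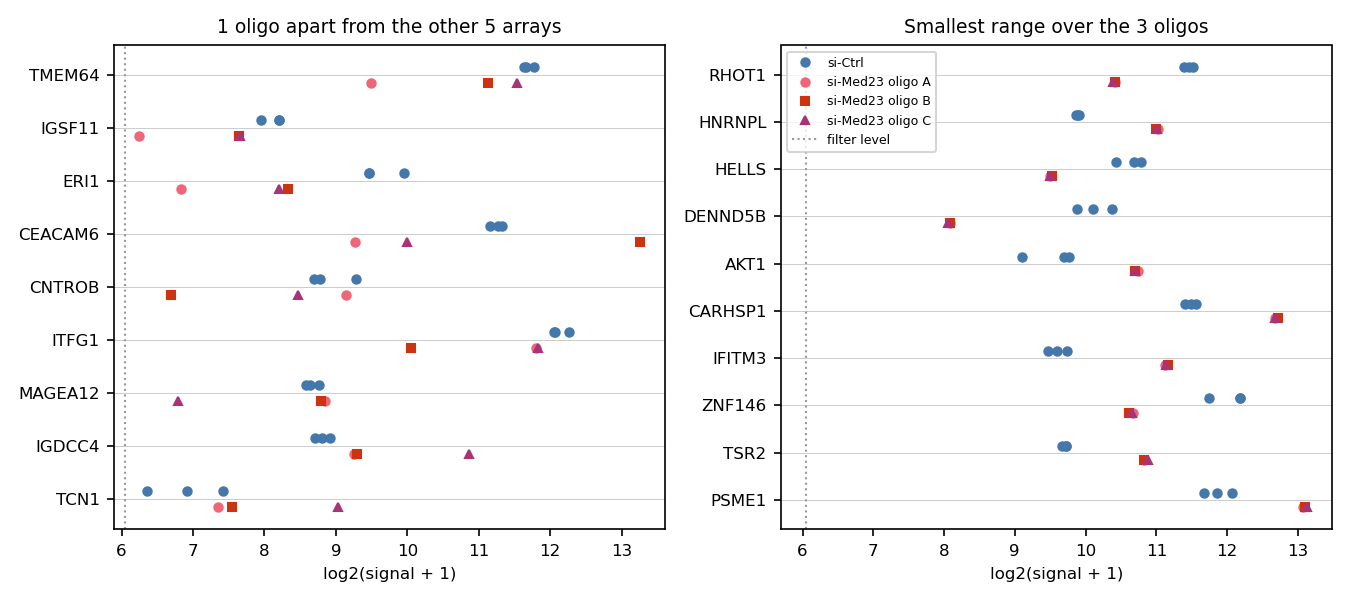
Log2(signal + 1) of the 9 genes in which 1 si-Med23 oligo lies farthest from the other 5 arrays (left) and of the 10 genes with the smallest range over the oligos among those at least 2-fold changed with each (right), with the filter level dotted. CEACAM6 reads 13.26 with oligo B and 9.27 and 9.99 with A and C; the genes were chosen for these patterns.

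Set against the si-Elk1 arrays directly, 1204 genes (9.54%) were higher and 1535 (12.2%) lower in si-Med23, counts that rest on which si-Elk1 arrays enter. They were 2045 and 2451 without the outlying si-Elk1 oligo C, 355 and 414 without oligo A, and 402 and 494 without oligo B. Of the 106 long coding genes 18 were lower and 2 higher, but 51 were lower without si-Elk1 oligo C and 4 without A or without B. As a list these genes were also low with si-Elk1 oligo C. The median of the long list against the control mean was -0.02, -0.14 and -0.63 with si-Elk1 oligos A, B and C. With si-Med23 oligos A, B and C it was -0.83, -0.57 and -0.59. Single members could be lower with every si-Elk1 oligo, such as RIF1 at 8.39, 8.50 and 7.62 beside a control mean of 9.40. ATR gave 9.93, 9.89 and 8.56 in si-Elk1 and ROCK2 10.13, 9.97 and 8.31, the last close to its si-Med23 mean of 8.14. RIF1 was lower in si-Med23 than in si-Elk1 by 1.85 (adjusted p = 0.0112), with a call kept without any si-Elk1 array. ATR was lower by 1.45 (0.0204), a call lost without si-Elk1 oligo A or B (0.0711 and 0.0716). ROCK2 did not pass (-1.32, adjusted p = 0.0690), and passed without oligo C (0.00359). Of the 40 centrosome genes 10 were lower (18 without si-Elk1 oligo C, 1 without A or B), and of the 31 kinesins 7 were lower (13 without C, 1 without A and 0 without B).

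Metallothioneins differed between the knockdowns under each of these omissions, with 5 of 7 genes higher in si-Med23 than in si-Elk1, 6 without si-Elk1 oligo C and 5 without A or B. MT1X was higher by 1.15 (adjusted p = 0.00393) and MT1H by 1.65 (0.00531). Of the 26 genes of antigen presentation 7 were higher (13 without oligo C, 4 without A or B), with PSMB8 higher by 1.51 (0.00480), while HLA-B did not pass (0.43, adjusted p = 0.0789) but did without oligo C (0.0128). Against si-Elk1, of the 16 conjugating enzymes 1 was higher and 2 lower, of the 12 cathepsins 2 and 1, and of the 32 plasma protein genes 4 and 5 (median -0.23). SERPINA3 and RBP4 had larger log2 fold changes against si-Ctrl in si-Elk1, 1.75 and 1.77, than in si-Med23, 1.42 and 1.19, and their differences between the knockdowns did not pass (adjusted p = 0.275 and 0.0556). TNFRSF21 was higher in si-Med23 than in si-Elk1 by 1.21 (0.00258), HNRNPL by 1.28 (0.00319) and AKT1 by 1.27 (0.0131), and MET was lower by 1.04 (0.0139). FN1, ANG and ASS1 did not pass between the knockdowns (-0.07, 0.12 and 0.39; adjusted p = 0.721, 0.787 and 0.385). Against si-Ctrl, whose arrays both comparisons share, 387 genes (3.07%) were higher and 150 (1.19%) lower in si-Elk1, among them 10 higher of the 32 plasma protein genes, 3 higher of the 26 of antigen presentation and none of the metallothioneins. FN1, ANG and ASS1 passed there with rises of 1.28, 1.93 and 1.78. Of the 15 largest rises in si-Med23, C3, LCN2, FEZ1 and C1R also passed as higher in si-Elk1 (2.62, 1.73, 1.44 and 1.36), besides ANG and ASS1. Of the 15 largest falls BCAT1 and CHML passed as lower (-1.85 and -1.50). The others of these largest rises and falls did not pass in si-Elk1.

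Markers of other cells were examined for the whole lists. Of 9 blood cell markers with a probe set 5 were tested, and CD14, a monocyte receptor also made by epithelium, rose by 1.65 ± 0.25. CD3E (-1.81 ± 0.69), CD79A (-0.34 ± 0.31), ITGAM (-0.24 ± 0.21) and HBB (0.14 ± 0.61) did not pass, and the median of the list was -0.24; the summed signal was 953 to 1270 in si-Ctrl and 1220 to 1560 in si-Med23. Of 10 fibroblast markers 3 were tested, of which COL1A1 rose by 1.76 ± 0.19 and ACTA2 by 0.59 ± 0.18, a call lost without any array but oligo A (adjusted p = 0.0741 to 0.0964), with summed signals of 2140 to 2210 and 3450 to 4780, and the other 7 were under the filter level. COL1A1 had 2 other probe sets above the filter level, of which 1 moved the same way. Of 8 endothelial markers 2 were tested and neither passed. In bulk samples more cells of a type and more RNA per cell cannot be told apart, and the part of these markers in the results was not tested.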

How the data were processed

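The values deposited by the authors are intensities, linear probe set signals of 54675 probe sets on 9 arrays. Per the submitters' processing notes, RMA and MAS5 were used in steps that are not stated. The mean after trimming 2% at each end was nearly the same on all arrays (500.1), so a change in total messenger RNA would not show.

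Signals were analysed as log2(value + 1). The 62 control probe sets were left out. Of 41091 probe sets with exactly 1 gene in the platform annotation (1801 have several and 11721 none), 41037 matched a RefSeq table of GRCh38.p14 and 0 symbols changed. Each of 19775 genes took its brightest probe set by the mean of the 9 arrays, and 12616 with a mean at or above log2 6.05 (signal 65.4, the median of all probe sets) were tested. A limma 3.58.1 fit in R 4.3.3 (lmFit, eBayes, two-sided, no block) covered the arrays, with Benjamini-Hochberg adjustment at 0.05 within a contrast. It was tested on simulated data. Medians are over log2 fold changes.

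The genes and the 53 lists were chosen with earlier results of these data known. The naming rule took MED23 and the 15 largest rises and falls among genes that passed with no overlap and every array at or above the filter level. From each list it took at most 4 members with the largest changes. These had to pass with no overlap and with both group means at or above the filter level. The rule also took for each oligo 3 genes in which it stands farthest apart. Last, it took the 10 genes with the smallest range over the oligos among those changed 2-fold with each. All other genes named, such as further members of a family, those that complete a small count and those shown for their promoters, lie outside this rule and were chosen after their values were seen. Classes of coding length were not analysed here. Promoters are the first RefSeq start of 10257 of the genes tested. Alternatives changed the filter, the probe set choice, the scaling, the pseudocount (16), the prior, the arrays fitted and the replicate block; leaving out si-Elk1 arrays was added after seeing the data.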

Additional observations from a re-analysis of the deposited data

Results flagged for a closer look

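Probe sets to which the annotation gives no gene were outside the comparisons above and also changed. Of 3156 such probe sets above the filter level, 641 (20.3%) passed with a lower and 242 (7.67%) with a higher signal in si-Med23, by limma. The Benjamini-Hochberg adjustment there ran over all probe sets above that level, with or without a gene, other than controls. The largest fall and the largest rise with all 6 compared arrays at or above that level are given here. The probe set that fell read 9.39, 9.61 and 8.90 (log2) under control and 6.67, 6.41 and 7.56 under oligos A, B and C (-2.42 ± 0.44, adjusted p = 0.00613). The probe set that rose read 8.28, 8.50 and 8.41 against 11.25, 9.91 and 10.85 (2.28 ± 0.38, adjusted p = 0.00477). Groups of 3 arrays are too small to test a single array as an outlier.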

How the results depend on the processing

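The fall of MED23 kept its direction and its call under every alternative run, from -2.65 to -2.21 when a compared array was left out. The count of genes that rose was 1688 with no filter, 1565 without probe sets ending in _x_at or _s_at, 4764 after median centring, 409 with hybridization control scaling and 18 with poly-A spike scaling, and 1500 to 2024 when a compared array was left out, with the lowest count without si-Ctrl replicate 3. The count that fell was 5205 and 11880 with the 2 control scalings and 1674 to 2201 when a compared array was left out. Of the long coding genes 30 fell when probe sets were averaged and 103 with poly-A spike scaling, and 37 to 45 when a compared array was left out. Genes 2-fold higher with all 3 oligos numbered 338 with no filter, 101 with the filter at the 70th percentile, 417 after median centring, 5 with poly-A spike scaling and 27 with hybridization control scaling; those 2-fold lower numbered 493 when probe sets were averaged, and 442, 8048 and 1840 under the same 3 scalings. The control scalings shift all genes of an array alike by construction, and the filters and the mean change the genes or values tested; other causes were not tested. Numbers shared by arrays did not pair them: the deviations of same-numbered si-Ctrl and si-Med23 arrays correlated at 0.00, 0.04 and 0.05, and with the replicate block 1989 genes rose and 2120 fell. Leaving out each si-Elk1 array was added after its oligo C was seen to stand apart: against si-Elk1 the counts then ran from 355 to 2045 higher and from 414 to 2451 lower, and against si-Ctrl from 2395 to 3093 and from 2337 to 2791. Of 169 named genes that passed against si-Ctrl, 9 lost their call without si-Elk1 replicate 1 or 2: MT1G, CTSV, LAMA5, UBR4, KIF1C, DDX24, DDX56, SLC39A4 and SLC39A6 (adjusted p = 0.0506 to 0.0692). The number of arrays limits precision, and dim probe sets have uncertain sizes.

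With poly-A spike scaling these named genes, which rose as deposited, had negative log2 fold changes: MT1X -0.20, MT1H -0.24, MT1E -0.32, MT1F -0.34, MT1G -0.73, MT2A -0.54, HLA-B -0.32, HLA-C -0.49, HLA-E -0.52, B2M -1.06, TAPBP -0.76, PSMB8 -0.45, PSME1 -0.38, HLA-DMB -0.47, CTSS -0.40, CTSD -0.27, CTSH -0.57, CTSF -0.66, TSPAN7 -0.61, TSPAN33 -0.64, CD9 -0.95, CD63 -0.96, CD81 -1.04, ERBB2 -0.80, FGFR3 -0.45, TNFRSF1A -0.55, TNFRSF21 -0.64, GPR161 -0.20, BMP2 -0.20, IGFBP7 -0.05, SERPINA3 -0.19, S100A4 -0.84, S100A13 -0.70, FN1 -0.40, FBN1 -0.54, TLN1 -0.86, LAMA5 -1.21, UBR4 -1.20, GSTM3 -0.31, GSTP1 -0.84, GSTK1 -0.84, HNRNPL -0.49, AKT1 -0.42, CARHSP1 -0.41, IFITM3 -0.06, TSR2 -0.47, SEC13 -1.11, KIF1C -1.03, USP11 -1.13, USP20 -0.05, USP4 -1.09, RBM23 -1.18, RBM4B -1.22, DDX24 -1.23, DDX56 -1.21, DHX8 -1.06, MED12 -1.20, ITGA5 -0.89, ITGB5 -1.02, ITGA11 -0.44, SLC39A3 -0.94, SLC39A4 -1.14, SLC39A7 -1.19, MDK -0.29, VEGFB -0.52, PDIA3 -0.61, PSMB10 -0.82, CTSB -0.80, RBP4 -0.42, ACTA2 -1.02. With hybridization control scaling LAMA5 -0.10, UBR4 -0.09, USP11 -0.02, RBM23 -0.07, RBM4B -0.10, DDX24 -0.11, DDX56 -0.10, MED12 -0.08, SLC39A4 -0.02, SLC39A7 -0.08 were negative. When probe sets were averaged the values turned for CD2AP 0.01, DDX56 -0.03, MERTK 0.22.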
